A study of Mus musculus with 6 samples.

Results

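The 4 genes described here are *Sox4*, the antisense-strand gene *Gm26735* that overlaps it, and the other members of the SoxC group of transcription factors, *Sox11* and *Sox12*. They are 4 of the 53458 genes measured in AML blasts from mouse bone marrow. *Sox4* was picked because it differed between the genotypes compared below, *Gm26735* because it lies over *Sox4*, and *Sox11* and *Sox12* because they are its closest relatives. The values of *Sox4* and *Gm26735* are therefore given as a description, without a test, whereas *Sox11* and *Sox12* were not chosen by their values.

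Sox proteins are transcription factors that bind and bend DNA through an HMG box, and the SoxC members carry a transactivation domain at their C-terminal end. SOX4 is needed for early B cell development and for formation of the cardiac outflow tract, and is active in stem and progenitor cells of many tissues. In the myeloid lineage, *Sox4* has been described as a gene that C/EBPα keeps low, and as a gene whose high expression favors leukemia. TET2 oxidizes 5-methylcytosine in CpG dinucleotides, a step towards removal of DNA methylation.

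RNA was sequenced from 3 mice of the genotype Cebpa-/p30 Tet2+/+ (mice 19, 23 and 24) and 3 of the genotype Cebpa-/p30 Tet2-/- (mice 5, 7 and 8), all on a C57BL/6 background. In both groups the normal *Cebpa* allele was deleted and the other allele makes only p30, the truncated isoform of C/EBPα, and in one group *Tet2* was deleted as well. Per the study's methods, donor bone marrow was transplanted into irradiated congenic recipients, the floxed alleles were then recombined by Mx1-Cre after Poly(I)-Poly(C) injection, and blasts were taken when mice became moribund. Mx1-Cre is induced by interferon and is not restricted to blood cells. The sorted cells were live, of donor origin (CD45.2+) and negative for CD3, B220 and Ter119, a gate that leaves granulocytic, monocytic, NK and progenitor cells together. Each library is a different mouse, but ages at sampling are not given in the labels.

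The libraries held between 13036643 and 32855343 estimated reads, with mouse 5 the deepest and mouse 24 the shallowest. The targeted gene *Tet2* had 73.6, 79.5 and 98.4 CPM (counts-per-million, TMM-normalized) in mice 19, 23 and 24 and 111, 79.4 and 96.7 CPM in mice 5, 7 and 8. These ranges overlap, and since the exons removed from the floxed allele are not given in the sources used here, the read total of the whole gene does not check the deletion. Markers of myeloid blasts were abundant in every mouse, with a summed level of 10 markers between 9105 and 11910 CPM in Tet2+/+ mice and between 10271 and 14419 CPM in Tet2-/- mice.

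*Sox4* (ENSMUSG00000076431) has a single exon of 4795 bases on the minus strand of chromosome 13 of GRCm38, from 28948919 to 28953713. Its coding sequence, from 28951702 to 28953021, takes 1320 bases, so that 2783 bases downstream of it, stop codon included, form the 3′ UTR. *Gm26735* (ENSMUSG00000097461) is annotated as a lincRNA on the plus strand, from 28943048 to 28951671. Exon 2 of *Gm26735*, from 28949056 to 28951671, is 2616 bases long and lies wholly inside the *Sox4* 3′ UTR, which has 167 further bases. It covers 54.6% of the *Sox4* transcript and 0 bases of the coding sequence. Only exon 1 of *Gm26735*, 33 bases from 28943048 to 28943080, lies outside *Sox4*.

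The overlap bears on every value of *Sox4* and *Gm26735* below, since the TruSeq RNA v2 kit does not mark the strand of the RNA. A read from the shared bases can come from either gene, and Salmon divides such reads by a statistical estimate. Of the 2619 stretches of 31 bases in the *Gm26735* transcript, 2586 (98.7%) also occur in the *Sox4* transcript on either strand. By contrast, *Sox4* shares 18 such stretches with *Sox11* and 3 with *Sox12*, so the relatives can hardly exchange reads. The sequence that belongs to *Gm26735* alone is short, and is shown here in capitals, followed in lower case by the first 10 bases of exon 2, read on the plus strand at chr13:28943048-28943080 for the capitals.
Gm26735 exon 1 and the start of exon 2: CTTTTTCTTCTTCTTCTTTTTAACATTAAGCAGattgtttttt
The capitals are rich in T and C, and reads that touch them or the junction are the only ones that could come from *Gm26735* and not from *Sox4*. The deposited values are totals per transcript, in which such reads are not listed separately.

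*Sox4* had 60.0, 87.1 and 69.5 CPM in mice 19, 23 and 24, and 15.2, 13.9 and 10.1 CPM in mice 5, 7 and 8. These levels rest on 1003, 1626 and 987 reads in the Tet2+/+ mice and on 481, 216 and 187 reads in the Tet2-/- mice. Every Tet2-/- mouse lay below every Tet2+/+ mouse, and the lowest Tet2+/+ level was 3.94-fold above the highest Tet2-/- level. With TET2 the mean was 72.2 ± 13.7 CPM (SD, n = 3), and without TET2 it was 5.52-fold lower, at 13.1 ± 2.63 CPM (SD, n = 3). The edgeR fit gave *Sox4* a log2 fold change of -2.46 (standard error 0.24), where negative values mean lower in Tet2-/- blasts throughout. In bulk RNA, fewer cells that express *Sox4* and less *Sox4* RNA per cell cannot be told apart.

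The quasi-likelihood test of edgeR covered 22170 genes. At a Benjamini-Hochberg adjusted p under 0.05, 10 were lower in Tet2-/- blasts, which is 0.0451%, and 0 were higher, which is 0%. DESeq2 on the same counts called 326 lower and 59 higher, which is 1.83% and 0.331% of the 17803 genes it gave an adjusted p. *Sox4* is among the 10, which is how it was chosen, and nothing is read from that here. A lower level without overlap between the genotypes was seen in 7.94% of the tested genes. By fold change, *Sox4* ranked 222 and *Gm26735* ranked 149 from the most negative of the 13839 genes that averaged 1 CPM or more.

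*Gm26735* had 17.3, 28.8 and 21.3 CPM in mice 19, 23 and 24, and 3.04, 1.41 and 4.34 CPM in mice 5, 7 and 8. As for *Sox4*, the genotypes did not overlap, and the mean was 7.67-fold lower, at 2.93 ± 1.47 CPM (SD, n = 3) in Tet2-/- blasts beside 22.5 ± 5.79 CPM (SD, n = 3) in Tet2+/+ blasts. The log2 fold change was -2.93 (standard error 0.44), which differed from that of *Sox4* by 0.47, about the size of its own standard error. In Tet2-/- mice the estimate rests on few reads, with 95.7, 21.7 and 79.9 estimated reads in mice 5, 7 and 8.

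**Figure D1:**
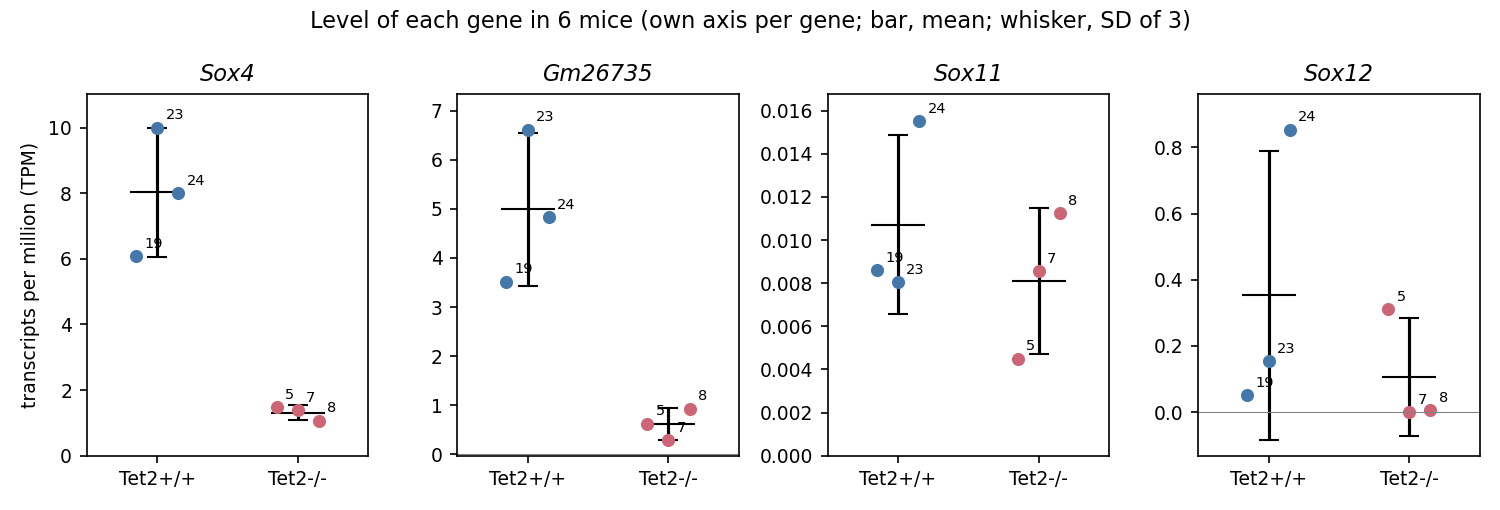
Level of *Sox4*, *Gm26735*, *Sox11* and *Sox12* in TPM (transcripts-per-million, vertical axes, which differ between panels) in 3 Tet2+/+ (blue) and 3 Tet2-/- (red) mice, numbered by mouse, with the mean and SD of each genotype in black. *Sox4* lies between 6.08 and 10.0 TPM in Tet2+/+ mice and between 1.07 and 1.48 TPM in Tet2-/- mice, whereas *Sox11* stays at or under 0.0155 TPM and *Sox12* overlaps between the genotypes.

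TPM, which corrects for transcript length, allows the genes to be set against each other. In Tet2+/+ mice *Sox4* was at 8.03 ± 1.96 TPM (SD, n = 3), *Gm26735* at 4.99 ± 1.56 TPM, *Sox12* at 0.353 ± 0.437 TPM and *Sox11* at 0.0107 ± 0.00417 TPM. This order held in each of these 3 mice, although the range of *Gm26735*, from 3.51 to 6.62 TPM, reached into that of *Sox4*, from 6.08 to 10.0 TPM. In Tet2-/- mice *Sox4* was at 1.31 ± 0.217 TPM (SD, n = 3) and *Gm26735* at 0.613 ± 0.322 TPM, and their ranges did not meet. *Sox12*, at 0.105 ± 0.178 TPM, and *Sox11*, at 0.00809 ± 0.00340 TPM, could not be ordered there, since *Sox12* was the higher in mouse 5 and the lower in mice 7 and 8. *Sox4* was the most abundant SoxC gene in every mouse, with a mean TPM above that of 36.0% of the genes with at least 1 CPM.

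The reads of the locus were divided unevenly between mice. *Gm26735* received 22.4% of the reads of both genes in mouse 19 (95% exact binomial interval 20.2% to 24.8%), 24.8% in mouse 23 (23.02% to 26.70%) and 23.5% in mouse 24 (21.2% to 25.9%). In the Tet2-/- mice it received 16.6% in mouse 5 (13.7% to 19.9%), 9.12% in mouse 7 (5.88% to 13.7%) and 29.9% in mouse 8 (24.5% to 35.8%). The Tet2+/+ mice sat close together, at 23.6% ± 1.20 (SD, n = 3), and the Tet2-/- mice lay on both sides of them, at 18.6% ± 10.5 (SD, n = 3). The intervals cover counting error only, and not the uncertainty of dividing shared reads. When the reads of both genes were summed, the locus held 77.3, 116 and 90.8 CPM in mice 19, 23 and 24 and 18.3, 15.3 and 14.5 CPM in mice 5, 7 and 8, with a log2 fold change of -2.56 (standard error 0.21). The lower level of the locus as a whole is thus free of how its reads were divided, whereas the level of each gene is not. No value separates transcription of the plus strand from reads of the *Sox4* 3′ UTR, and this was not tested.

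**Figure D2:**
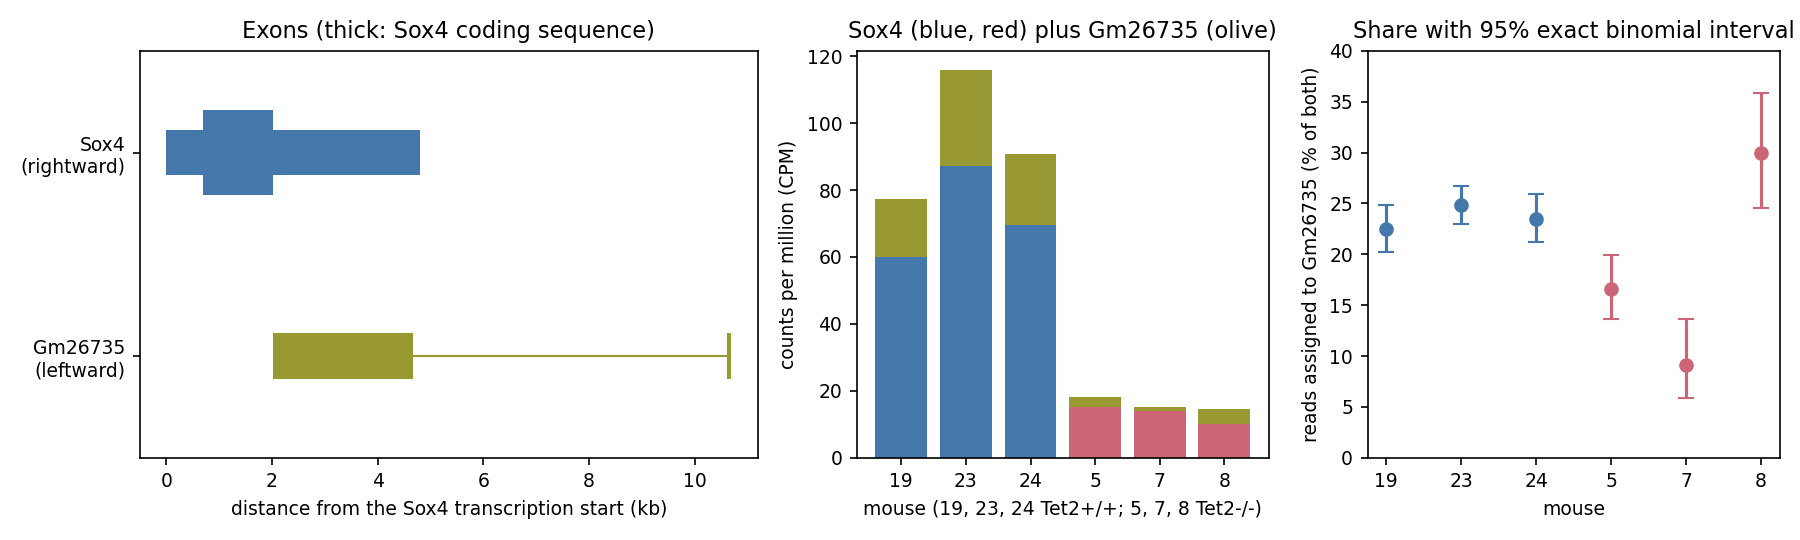
The left panel shows the exons of *Sox4* and *Gm26735* by distance in kb from the *Sox4* start, with the *Sox4* coding sequence drawn thicker. The middle panel stacks the CPM of *Sox4* (blue in Tet2+/+, red in Tet2-/-) and *Gm26735* (olive) for each mouse, and the right panel gives the percentage of the reads of both that went to *Gm26735*, with its 95% exact binomial interval. The stacked levels are 77.3 CPM or more in Tet2+/+ mice and 18.3 CPM or less in Tet2-/- mice, while the share in Tet2-/- mice ranges from 9.12% to 29.9%.

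Within a genotype, the mice were not ordered alike by both genes. In Tet2+/+ mice both were lowest in mouse 19 and highest in mouse 23. In Tet2-/- mice *Sox4* was lowest in mouse 8, where *Gm26735* was highest. Over the 6 mice the log2(CPM + 0.5) values of *Sox4* and *Gm26735* had a Pearson r of 0.93, which ranked *Gm26735* at place 138 among 13838 genes, and after the mean of each genotype was subtracted r was -0.08. Both r are descriptions over 6 mice, of genes that share reads.

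Fold changes and read shares were also taken for other genes whose reads cannot be assigned by strand. In 86 other pairs of a protein-coding gene and a non-coding gene on the opposite strand, at least 50% of the bases in the non-coding exons lay over exons of the coding gene and both had a mean of at least 1 CPM. In 63 of the 86 pairs both genes had a log2 fold change of the same sign, and Pearson's r across pairs was 0.58 (Spearman's rho 0.67). The median absolute difference between the fold changes of a pair was 0.32 on the log2 scale, against 0.47 for *Gm26735* and *Sox4*. The non-coding gene held a median of 5.08% of the reads of its pair, and *Gm26735* held 22.8%. Pairs share reads and libraries, so these values are descriptions.

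**Figure D3:**
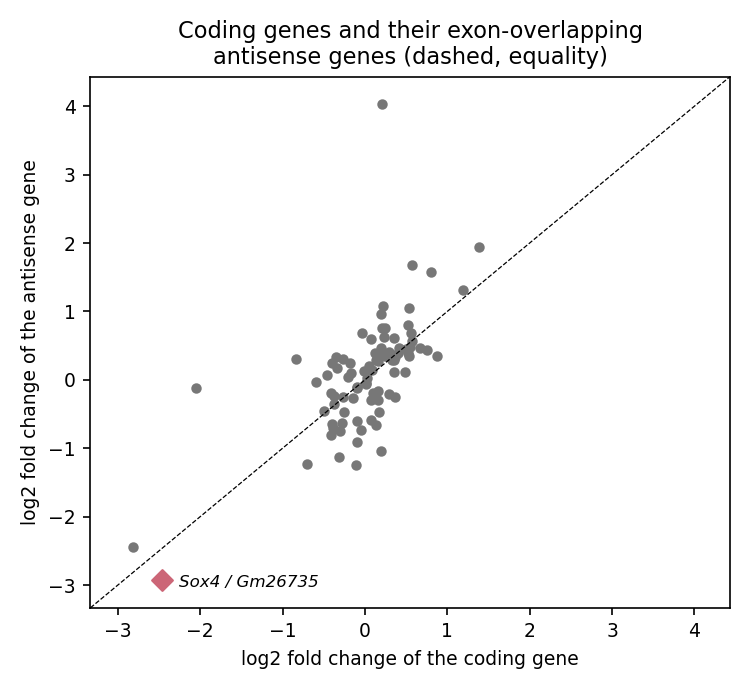
Each point is a pair of a protein-coding gene (horizontal axis, log2 fold change of Tet2-/- against Tet2+/+) and a non-coding gene on the opposite strand, with at least 50% of its exon bases over exons of the coding gene (vertical axis, same unit), with equality dashed. The red diamond is *Sox4* with *Gm26735*, at -2.46 and -2.93, below the dashed line, and 63 of the 86 other pairs have fold changes of the same sign.

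*Sox11* (ENSMUSG00000063632, chromosome 12 from 27334264 to 27342574), which is best known from developing neurons and from mantle cell lymphoma, was at the limit of detection. It had 2.19, 2.04 and 3 estimated reads in mice 19, 23 and 24 and 2.23, 2.04 and 3.04 estimated reads in mice 5, 7 and 8, over a transcript of 8311 bases. No fold change is given for so few reads.

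*Sox12* (ENSMUSG00000051817, chromosome 2 from 152393611 to 152398063), the least studied SoxC gene, differed more between mice than between genotypes. It had 8, 24 and 100 reads in mice 19, 23 and 24 and 99, 0 and 1 reads in mice 5, 7 and 8, that is 0.479, 1.28 and 7.04 CPM against 3.13, 0 and 0.0543 CPM. The levels were high in mouse 24 of one genotype and mouse 5 of the other, so the genotypes overlapped. The 0 reads of mouse 7 allow up to 3 reads. All of these reads were assigned to ENSMUST00000182625, an unspliced transcript of 4453 bases, and 0 to the spliced ENSMUST00000063332. EdgeR gave -1.39 as log2 fold change (standard error 1.60, adjusted p = 0.861). It rested on single mice, being 0.31 without mouse 24 and -6.35 without mouse 5.

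Of 17 other Sox genes, 4 passed the filter on low counts and 1, *Sox13*, reached a mean of 1 CPM. *Sox13*, a SoxD gene known from gamma-delta T cells, had 17.2, 1.82 and 1.55 CPM in mice 19, 23 and 24 and 0.823, 2.38 and 0 CPM in mice 5, 7 and 8. In edgeR it had -2.70 as log2 fold change (standard error 1.43, adjusted p = 0.674), which became -0.68 without mouse 19. Mouse 19 also had the most hemoglobin RNA, with 83.0 CPM of *Hbb-bt* against between 0.775 and 9.71 CPM in the other mice, and its part in the *Sox13* level was not tested. None of the 4 was called by edgeR or DESeq2. At an unadjusted p under 0.05, 1 was lower, *Sox18*, named after its values were seen. It had 2, 1 and 5 reads in mice 19, 23 and 24 and 0 reads in mice 5, 7 and 8. *Sox18* passed the filter on low counts through its Tet2+/+ reads alone. Its direction was thereby fixed, and nothing is read from it. Of all genes tested, 5.12% were lower at that unadjusted threshold, and 8.11% differed in either direction.

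The promoters of the 3 SoxC genes are shown because TET2 acts on CpG dinucleotides and because the *Sox4* window holds a repeated CCAAT box, the motif of factors such as NF-Y. Each is the 250 bases before the start in RefSeq on GRCm38.p6, 5′ to 3′ on the minus strand, with CCAAT and its reverse complement ATTGG in capitals. The windows are chr13:28953700-28953949 for *Sox4*, chr12:27342719-27342968 for *Sox11* and chr2:152398047-152398296 for *Sox12*.
Sox4 promoter: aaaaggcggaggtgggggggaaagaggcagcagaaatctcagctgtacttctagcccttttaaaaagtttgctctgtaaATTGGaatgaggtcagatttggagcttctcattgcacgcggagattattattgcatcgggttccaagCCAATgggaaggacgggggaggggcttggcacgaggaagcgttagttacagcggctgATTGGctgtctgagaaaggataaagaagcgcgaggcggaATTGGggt
Sox11 promoter: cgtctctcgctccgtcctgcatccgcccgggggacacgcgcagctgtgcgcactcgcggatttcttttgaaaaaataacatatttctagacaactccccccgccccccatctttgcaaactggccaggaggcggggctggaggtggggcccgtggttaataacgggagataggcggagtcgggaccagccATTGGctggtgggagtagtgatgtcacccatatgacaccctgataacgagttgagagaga
Sox12 promoter: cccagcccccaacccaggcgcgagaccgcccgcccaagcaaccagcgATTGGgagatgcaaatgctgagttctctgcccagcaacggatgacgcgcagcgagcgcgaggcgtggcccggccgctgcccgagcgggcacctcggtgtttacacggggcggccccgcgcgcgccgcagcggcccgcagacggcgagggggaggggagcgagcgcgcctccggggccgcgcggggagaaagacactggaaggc
The *Sox4* window holds 11 CpG dinucleotides, the *Sox11* window 17 and the *Sox12* window 35, against a median of 6 over 32841 windows of the same length, of which 35.6% have at least as many as *Sox4*. CCAAT, counted on both strands, occurs 4 times in the *Sox4* window and once each in those of *Sox11* and *Sox12*. The RefSeq starts differ from the transcript ends given above. The last bases of the *Sox4* window, with its last ATTGG, lie inside the annotated *Sox4* exon. Those of the *Sox12* window lie inside the unspliced *Sox12* transcript ENSMUST00000182625, which reaches 152398063. The *Sox11* window lies wholly upstream of the annotated *Sox11* transcript without reaching it. The motif was chosen after the sequences were seen. It occurs at least once in 33.9% of all such windows and at least 4 times in 0.840% of them. These counts describe letters and not bound sites, and no methylation was measured in these libraries. The study measured DNA methylation in separate libraries of blasts of both genotypes, which were not read here.

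Genes described elsewhere as targets of SOX4 or its relatives were read beside it, and none was called. Of 14 listed, 13 were tested, with 0 called by edgeR in either direction and 0 by DESeq2, a median log2 fold change of -0.01 and, at an unadjusted p under 0.05, 1 of 13 lower and 0 higher, near the 5.12% lower over all genes. The median of all tested genes was 0.00. *Ago1*, an Argonaute protein, was the 1, with 70.5, 66.9 and 59.3 CPM in mice 19, 23 and 24 and 38.4, 49.5 and 53.6 CPM in mice 5, 7 and 8 (log2 fold change -0.48, standard error 0.18, adjusted p = 0.599 in edgeR). *Ezh2*, the histone H3K27 methyltransferase, and *Dhx9*, an RNA helicase, were the most abundant, *Ezh2* between 88.3 and 118 CPM and *Dhx9* between 228 and 327 CPM, with overlapping genotypes. Among its genes with at least 1 CPM, the largest values were those of *Ptch1*, the Hedgehog receptor, at 1.01 (standard error 1.05), and *Tead2*, a partner of YAP, at -0.71 (standard error 0.39). *Tead2* was higher, at 0.45, on length-scaled counts, and *Ptch1* was at -0.43 without mouse 5.

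SOX4 has been described to act on β-catenin and the TCF/LEF factors of Wnt signaling. Of 16 listed genes all were tested, 0 were called by edgeR and 0 by DESeq2, and the median log2 fold change was 0.06. *Ctnnb1*, which encodes β-catenin, was between 172 and 222 CPM in Tet2+/+ mice and between 197 and 244 CPM in Tet2-/- mice, and *Csnk1a1*, a kinase of the β-catenin destruction complex, between 217 and 256 CPM and between 184 and 250 CPM. Without adjustment, at p under 0.05, 0 were lower and 1 of 16, beside 664 of 22170 over all genes, was higher, *Pygo2*, a co-activator of β-catenin, with 48.2, 60.7 and 53.4 CPM in mice 19, 23 and 24 and 70.5, 77.7 and 67.3 CPM in mice 5, 7 and 8 (log2 fold change 0.41, standard error 0.16, adjusted p = 0.604 in edgeR). *Bcl9*, its adaptor to β-catenin, was at -0.46 (standard error 0.31), and between -0.69 and -0.21 with 1 mouse left out.

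Regulators and protein partners of SOX4 were taken as a further group of 14 genes, all tested. EdgeR called 0, beside 0.0451% lower over all genes. DESeq2 called 1 lower and 0 higher, beside 1.83% and 0.331% over all genes. The median log2 fold change was 0.11. Without adjustment, at p under 0.05, 2 of 14 were lower and 0 higher, beside 5.12% lower over all genes. The gene called by DESeq2 was *Il5ra*, the interleukin-5 receptor α chain, to which SOX4 is linked through the adaptor syntenin. *Il5ra* had 8.43, 22.0 and 12.1 CPM in mice 19, 23 and 24 and 2.50, 4.69 and 1.74 CPM in mice 5, 7 and 8, without overlap (log2 fold change -2.26, standard error 0.51, adjusted p = 0.318 in edgeR). *Sdcbp*, which encodes syntenin, pointed the other way, with 256, 260 and 234 CPM against 406, 305 and 299 CPM (log2 fold change 0.43, standard error 0.19, adjusted p = 0.632 in edgeR), again without overlap. Over all tested genes 7.94% were lower without overlap and 1422 of 22170 were higher without overlap.

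*Myb*, a transcription factor of immature blood cells, had 254, 272 and 333 CPM in mice 19, 23 and 24 and 192, 198 and 162 CPM in mice 5, 7 and 8 (log2 fold change -0.64, standard error 0.18, adjusted p = 0.487 in edgeR). *Cebpa*, whose reads here come from the p30 allele, had 140, 194 and 287 CPM and 158, 75.7 and 124 CPM in the same order. Its genotypes overlapped (log2 fold change -0.80, standard error 0.35, adjusted p = 0.632 in edgeR). With 1 mouse left out its fold change lay between -1.07 and -0.49. *Spi1*, which encodes the myeloid master regulator PU.1, was between 291 and 334 CPM in Tet2+/+ mice and between 309 and 511 CPM in Tet2-/- mice.

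**Figure D4:**
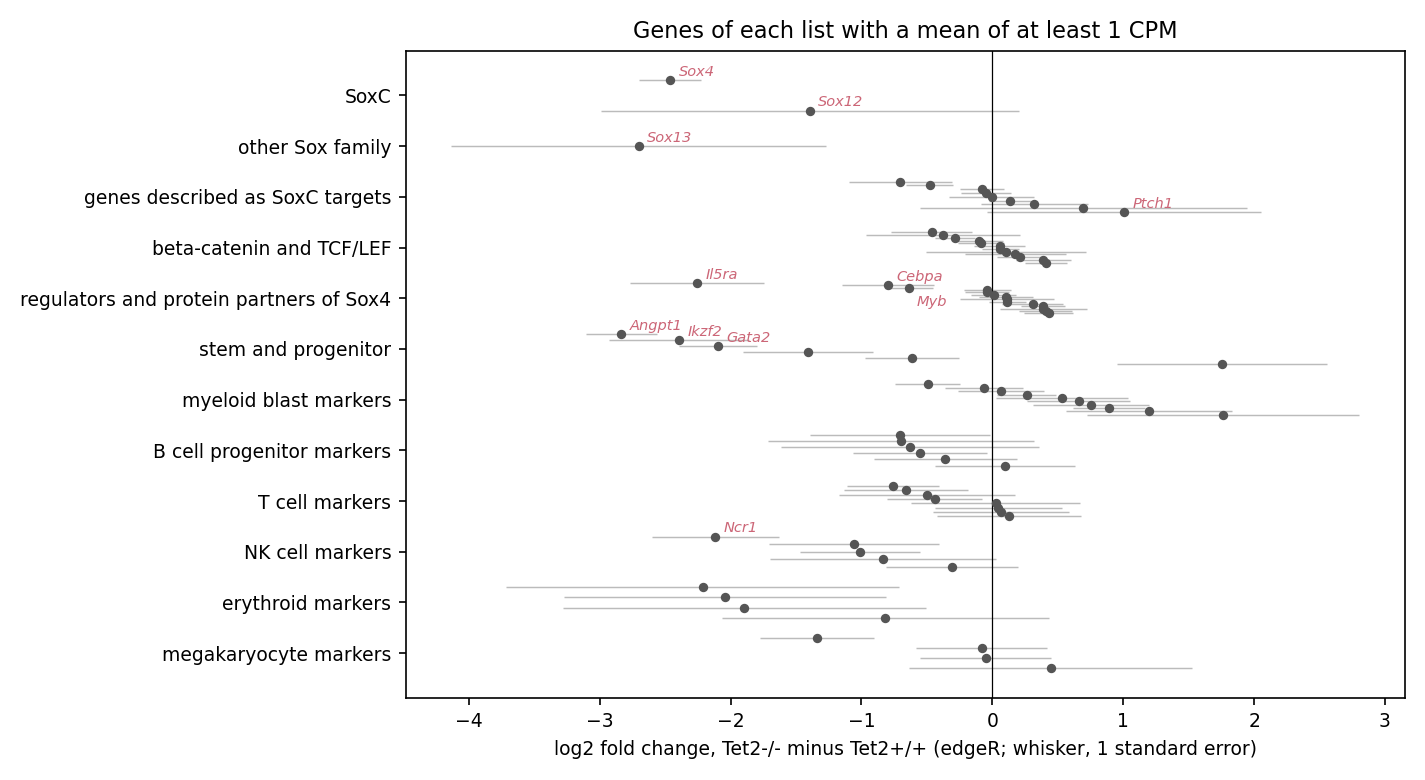
Log2 fold change of Tet2-/- against Tet2+/+ blasts (horizontal axis, point and 1 standard error from edgeR) for each gene with a mean of at least 1 CPM in 12 lists (vertical axis). *Sox4*, picked for its difference, lies at -2.46, and *Il5ra* at -2.26. The described targets lie between -0.71 and 1.01, the Wnt genes between -0.46 and 0.41, and the other regulators between -0.80 and 0.43. Among the progenitor genes *Angpt1* lies at -2.84, *Ikzf2* at -2.39, *Gata2* at -2.10 and *Flt3*, on the other side of 0, at 1.75.

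To see how far along chromosome 13 lower levels reached, the neighbours of *Sox4* were compared. Within 2 Mb on either side of *Sox4* the annotation lists 66 other genes, of which 17 were tested and 10 had a mean of at least 1 CPM. EdgeR called 0 of the 17 and DESeq2 called 1 lower, beside 0.0451% and 1.83% lower over all genes. The median log2 fold change was 0.02. *Cdkal1*, the nearest neighbour with at least 1 CPM and named for its position, lies 238 kb away and had a log2 fold change of -0.21 (standard error 0.23). The called gene was *Gm48161*, an RNA annotated within an intron of *Agtr1a*, 1417 kb away, with 220, 264 and 447 CPM in mice 19, 23 and 24 and 98.3, 99.4 and 127 CPM in mice 5, 7 and 8 (log2 fold change -1.52, standard error 0.30, adjusted p = 0.245 in edgeR). It was also the 1 of 17 neighbours lower at an unadjusted p under 0.05, with 0 higher, beside 5.12% lower over all genes. Without overlap between the genotypes, 3 of the 17 were lower, *Gm48161*, *Irf4* and *Cdkal1*, and 0 higher, beside 7.94% lower over all genes. *Irf4*, a transcription factor of lymphoid and dendritic cells, was at -0.88 (standard error 0.48), and *Uqcrfs1*, a subunit of respiratory complex III, was between 49.6 and 75.5 CPM in all mice.

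**Figure D5:**
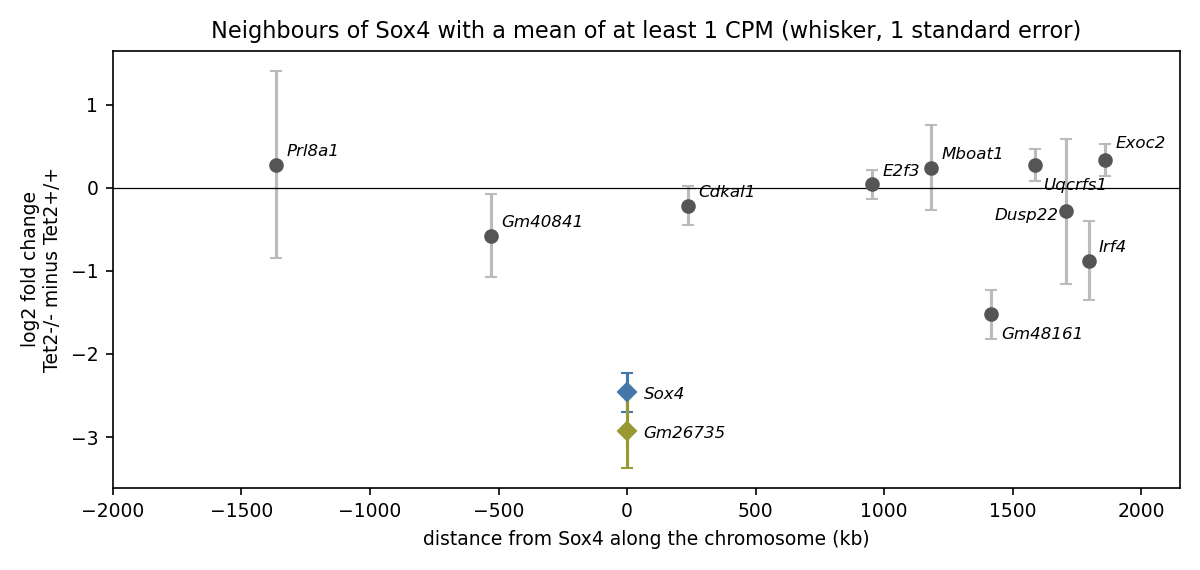
Log2 fold change of Tet2-/- against Tet2+/+ blasts (vertical axis, with 1 standard error from edgeR) of *Sox4*, *Gm26735* and the 10 neighbours with a mean of at least 1 CPM, by distance from *Sox4* in kb (horizontal axis). *Sox4* and *Gm26735* lie at -2.46 and -2.93, *Gm48161* at -1.52, and the other neighbours between -0.88 and 0.33.

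*Sox4* is also expressed by other cells that this gate or an incomplete sort could hold, and markers of those cells were read beside it. Of 10 genes of stem and progenitor cells, edgeR called 1 lower (*Angpt1*) and 0 higher, DESeq2 called 3 lower, beside 0.0451% and 1.83% lower over all genes, and the median log2 fold change was -1.27, with 4 of 10 lower and 0 higher at an unadjusted p under 0.05, beside 5.12% lower over all genes. The list was written with earlier results of these data known, so these counts are a description and nothing is read from them. The call of *Angpt1* was lost on length-scaled counts (adjusted p = 0.0510 in edgeR) and without any one mouse (0.0930 to 0.179). Their summed level was between 410 and 602 CPM in Tet2+/+ mice and between 174 and 253 CPM in Tet2-/- mice, without overlap, as for *Sox4*. *Gata2* (log2 fold change -2.10, standard error 0.30), *Ikzf2* (-2.39, standard error 0.53) and *Cd34* (-1.41, standard error 0.50) were the others of the 4. On length-scaled counts *Gata2* was at -2.79 with edgeR and -2.80 with DESeq2. *Flt3*, a cytokine receptor of progenitors named after its values were seen, was the 1 gene of the list on the other side of 0. It was at 1.75 (standard error 0.80), and at 0.48 without mouse 5. *Kit* overlapped between the genotypes at -0.61 (standard error 0.36), and lay between -1.03 and -0.34 with 1 mouse left out. The part of these progenitor genes in the *Sox4* level was not tested.

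B cell progenitor markers, which mark a lineage rich in *Sox4*, overlapped between the genotypes in their sum, of which *Cd79b* (14.1 to 47.7 CPM in all mice) was a large part. The sum of the 14 genes was between 33.5 and 83.9 CPM in Tet2+/+ mice and between 24.2 and 65.5 CPM in Tet2-/- mice. Of these genes 12 were tested, while *Rag1* and *Vpreb2* had too few reads to be tested. EdgeR called 0 and DESeq2 called 1 lower, beside 0.0451% and 1.83% lower over all genes. The median log2 fold change was -0.59 (between -1.61 and -0.31 with 1 mouse left out). Without adjustment, at p under 0.05, 2 were lower and 0 higher, the early genes *Rag2* and *Dntt*, beside 5.12% lower over all genes. The tested genes without overlap were *Rag2* and *Vpreb3*, both lower, beside 7.94% over all genes. *Rag2* had 1.26, 2.30 and 0.704 CPM in mice 19, 23 and 24 and 0.190, 0.321 and 0.163 CPM in mice 5, 7 and 8 (log2 fold change -2.66, standard error 0.62). *Dntt* had 0.0598, 0.428 and 1.34 CPM and 0.0633, 0 and 0 CPM in the same order. Those levels rest on 1, 8 and 19 reads and on 2, 0 and 0 reads. *Vpreb3* had 4, 4 and 4 reads and 4, 1 and 0 reads. By fold change, 9 of the 12 tested genes were lower and 3 higher. The highest, named for their direction, were *Igll1* at 1.31 (standard error 0.86) and *Vpreb1* at 0.97 (standard error 0.79). Each had 19 or fewer reads in every mouse.

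Markers of NK cells summed to between 24.6 and 54.7 CPM in Tet2+/+ mice and between 12.5 and 30.6 CPM in Tet2-/- mice. EdgeR called 0 of 5 and DESeq2 called 1 lower (*Ncr1*, log2 fold change -2.12), beside 0.0451% and 1.83% lower over all genes. The median of the 5 NK genes was -1.01 (between -2.02 and -0.60 with 1 mouse left out). T cell markers summed to between 36.3 and 43.3 CPM and between 16.9 and 48.8 CPM in the same order, with 0 of 8 called by either tool and a median of -0.21 (between -0.76 and 0.07 with 1 mouse left out). Erythroid markers summed to between 5.99 and 146 CPM and between 7.98 and 15.3 CPM, with 0 of 7 tested called by either tool and a median of -2.04 that became 0.04 without mouse 19. Megakaryocyte markers summed to between 28.6 and 50.2 CPM and between 13.5 and 30.5 CPM, with 0 of 5 called by either tool and a median of -0.08 (between -0.58 and 0.27 with 1 mouse left out). Among the myeloid blast markers, 0 of 10 were called by edgeR and 1 was higher by DESeq2 (*Ly6c2*), beside 0.331% higher over all genes. Their median was 0.60 (between 0.20 and 0.88 with 1 mouse left out), with 2 lower and 8 higher by fold change. *Mpo*, named for its level, was the 1 lower without overlap, and *Ly6c2* the 1 higher, beside 1761 and 1422 of 22170 over all genes. *Mpo* was between 4110 and 4527 CPM in Tet2+/+ mice and between 2662 and 3394 CPM in Tet2-/- mice. Its log2 fold change was -0.49 (standard error 0.25). At an unadjusted p under 0.05, 1 gene each was lower in the NK, erythroid and megakaryocyte lists (*Ncr1*, *Alas2* and *Itga2b*), 1 was higher in the myeloid list (*Ly6c2*) and 0 in the T cell list. Over all tested genes these shares were 5.12% lower and 664 of 22170 higher. Their part in the *Sox4* level was not tested.

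The genes most like *Sox4* over the 6 mice were named by Pearson's r of log2(CPM + 0.5) among genes that averaged 1 CPM or more. They were *Gm32552*, a lincRNA (r = 0.997), *Ighv8-12*, an immunoglobulin heavy chain segment from a family of near-identical members (r = 0.996), *Car9*, a carbonic anhydrase induced by hypoxia (r = 0.994), *Aff3*, a nuclear factor of lymphoid cells (r = 0.994), and *Angpt1*, a ligand of the TIE2 receptor (r = 0.992). *Angpt1* had 77.7, 101 and 59.5 CPM in mice 19, 23 and 24 and 13.2, 11.5 and 8.57 CPM in mice 5, 7 and 8. *Aff3* had 40.7, 54.5 and 37.3 CPM and 11.6, 12.02 and 7.71 CPM in the same order. The difference was small for *Car9*, from 9.15, 10.1 and 9.86 CPM to 7.21, 6.94 and 6.84 CPM, so a high r does not mean a like fold change.

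After the genotype means were subtracted, the genes most like *Sox4* were *Pomt1*, a protein O-mannosyltransferase (r = 0.996), *Klri2*, an NK cell receptor (r = 0.992), *Tctex1d2*, a dynein light chain (r = 0.990), *Cd72*, a B cell surface receptor (r = 0.988), and *Abhd16a*, a phospholipase (r = 0.987). None of these 5 was among the first 5. With 6 mice and 13838 genes, the top of such a ranking holds high values for any gene, and no test was made of it.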

How the data were processed

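RNA-seq of sorted AML blasts was analysed for 3 Tet2+/+ and 3 Tet2-/- mice, 1 library each. TruSeq RNA v2 libraries were made from 200 ng RNA and quantified by the authors with Salmon 0.12.0 against mouse transcripts (mm10, GRCm38.p6 per the submitters' processing notes). The authors deposited an estimated count of reads for each of 136288 transcripts, not normalized between mice. They also deposited Salmon's TPM, which divides reads by effective transcript length.

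Here, estimated counts were summed to GENCODE M21 genes and rounded. The 112 transcripts without a gene held between 0.0307% and 0.0416% of the reads and were left out. Depth was between 13036643 and 32855343 reads. The 22170 genes whose normalized counts summed to at least 10 were tested with edgeR 4.0.16 (TMM, quasi-likelihood, Benjamini-Hochberg, threshold 0.05) in R 4.3.3, and CPM values are TMM-normalized. The study used DESeq2 on length-scaled values. DESeq2 1.42.0, length-scaled counts, other filters and scalings, and leaving out each mouse were alternatives. The code was tested on simulated data. Sequences came from GENCODE and RefSeq tables. Overlaps and figures were made with Python 3.11.15, pandas 2.3.3, scipy 1.17.1 and matplotlib 3.10.9.

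The members and lists were chosen with earlier results of these data known. Named were the 4 members, Sox genes that averaged 1 CPM or more and, in each other list and among the neighbours, the genes called, the 2 of highest TPM and the 2 of largest fold change above that level. The 5 genes most like *Sox4* by each measure were also named. Of the cell type lists, only genes a result turns on are named. Other names are genes counted at an unadjusted p under 0.05, or are marked in the text.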

Additional observations from a re-analysis of the deposited data

How the results depend on the processing

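The log2 fold change of *Sox4* lay between -2.65 and -2.45 under other tests, counts, filters and scalings and between -2.59 and -2.31 when each mouse was left out, and that of *Gm26735* between -3.09 and -2.91 and between -3.31 and -2.61. The reads of both summed gave -2.56. Scaling by library size only, which gave -2.65 for *Sox4*, shifted the median of all genes by -0.17. The fold change of *Sox11* is not given under any setting, since it had about 3 reads or fewer in every mouse. By TPM instead of reads, the share of *Gm26735* was 38.0% in Tet2+/+ and 31.1% in Tet2-/- mice. Signs turned for *Sox12* (between -6.35 and 0.31 when each mouse was left out), *Tead2* (0.45 on length-scaled counts with either tool), *Ptch1* (between -0.43 and 1.59 when each mouse was left out) and *Tet2* (from 0.19 to -0.046 with edgeR and -0.049 with DESeq2 on length-scaled counts), none of them called. Over all alternatives the medians near 0 also turned, between -0.20 and 0.12 for described targets, -0.12 and 0.10 for Wnt genes, -0.07 and 0.20 for regulators and -0.23 and 0.09 for neighbours.

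Counts of calls followed the tool. DESeq2 called 326 genes lower and 59 higher on the same counts, and 322 and 64 on length-scaled counts. It called 1 lower gene among the regulators, the neighbours, the B cell markers and the NK markers, 1 higher myeloid marker and 3 lower progenitor genes, on either kind of count, but the B cell gene was *Rag2* on the same counts and *Pax5* on length-scaled counts. EdgeR called 5 lower genes on length-scaled counts, 62 lower and 4 higher without a filter, 1 higher with filterByExpr and 1 higher with RLE factors, and between 0 and 7 lower when each mouse was left out. Of the progenitor genes, edgeR called 0 on length-scaled counts, 2 without a filter and 0 without any single mouse (mouse 19, 23, 24, 5, 7 or 8), when the adjusted p of *Angpt1* lay between 0.0930 and 0.179. Leaving out each mouse gave medians between -1.91 and -1.47 for progenitor genes, -1.61 and -0.31 for B cell markers, -2.02 and -0.60 for NK markers, -0.76 and 0.07 for T cell markers, -0.58 and 0.27 for megakaryocyte markers, and -2.55 and 0.036 for erythroid markers. The cause was not tested. No paired analysis was possible because the genotypes share no mouse numbers. The Tet2-/- mice had under 500 *Sox4* reads each, and the binomial intervals of the *Gm26735* share leave out the uncertainty of dividing shared reads.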
